A study of Mus musculus with 6 samples.

Results

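The killing machinery of cytotoxic lymphocytes was followed through 10 genes, Gzma, Gzmb, Gzmk, Prf1, Nkg7, Ctsw, Klrd1, Ncr1, Ifng and Fasl, chosen by name out of 31055 counted genes. They were read in 6 single-cell libraries (10x Genomics 3′) of mammary tissue from female C3(1)-Tag (C3TAG) mice on the FVB/NJ background, in which regulatory sequence of the C3(1) gene drives the SV40 large T antigen in mammary epithelium. Each of 3 disease states had 2 libraries: Prepuberty, the whole gland at 5 weeks, DCIS, the whole gland holding ductal carcinoma in situ at 14 weeks, and Tumor, a palpable tumour at more than 18 weeks. Mice of all groups carried the transgene, and no group was given a drug. Whether the 2 libraries of a state are from separate animals is not given in the labels, so an SE or p-value measures the spread between these libraries, which may be technical. By the study's methods, though not by the labels, tumours went through another dissociation kit than glands, which cannot be told apart from the Tumor state, and Tumor 2 had a later library kit.

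A cytotoxic lymphocyte kills a cell it touches by releasing granules. Perforin (Prf1) opens the membrane of the target, and granzymes (Gzma, Gzmb, Gzmk) are serine proteases that enter it and trigger death. Nkg7 is a granule membrane protein needed for efficient release, and Ctsw is a cysteine protease of T and NK cells. Klrd1 (CD94) pairs with NKG2 chains into receptors for the non-classical class I molecule Qa-1, and Ncr1 (NKp46) is an activating receptor that marks NK cells and related innate lymphocytes. Fasl is the ligand of the death receptor Fas, and Ifng is interferon gamma, the cytokine through which these cells act on macrophages, tumour cells and antigen presentation. Natural killer (NK) cells carry the granule genes at rest, whereas T cells acquire them on activation, CD8 cells more than CD4 cells.

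The promoters of 4 of these genes are shown: Gzma, Prf1 and Ncr1, whose transcripts lay mostly in NK-marker cells as described below, and Gzmb, the granzyme that did not share that pattern. Each run is the 250 bases before the RefSeq gene start (GRCm38.p6), 5′ to 3′ on the strand of the gene, with the RUNX core TGTGGT, read on either strand, in capitals.
Gzma (chr13:113100982-113101231, minus strand): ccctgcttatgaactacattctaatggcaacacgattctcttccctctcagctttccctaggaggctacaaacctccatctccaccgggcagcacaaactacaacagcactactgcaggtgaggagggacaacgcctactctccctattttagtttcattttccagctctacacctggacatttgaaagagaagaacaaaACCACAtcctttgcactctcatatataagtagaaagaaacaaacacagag
Gzmb (chr14:56262335-56262584, minus strand): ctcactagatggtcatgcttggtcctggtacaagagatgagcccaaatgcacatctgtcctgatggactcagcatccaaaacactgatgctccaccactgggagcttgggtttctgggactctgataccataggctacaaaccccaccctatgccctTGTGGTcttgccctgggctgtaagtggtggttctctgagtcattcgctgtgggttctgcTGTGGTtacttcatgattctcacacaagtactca
Prf1 (chr10:61297586-61297835, plus strand): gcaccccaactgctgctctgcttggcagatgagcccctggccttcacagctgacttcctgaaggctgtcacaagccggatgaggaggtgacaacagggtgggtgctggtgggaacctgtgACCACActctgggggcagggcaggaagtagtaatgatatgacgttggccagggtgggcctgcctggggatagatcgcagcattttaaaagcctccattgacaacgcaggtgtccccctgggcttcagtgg
Ncr1 (chr7:4337465-4337714, plus strand): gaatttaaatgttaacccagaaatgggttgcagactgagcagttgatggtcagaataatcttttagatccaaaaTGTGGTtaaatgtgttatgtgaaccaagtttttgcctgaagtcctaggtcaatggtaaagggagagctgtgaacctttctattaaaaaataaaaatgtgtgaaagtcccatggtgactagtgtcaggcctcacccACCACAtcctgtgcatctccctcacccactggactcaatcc

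Of the 10 genes, 8 had a promoter in the RefSeq table (Ctsw and Klrd1 did not match). The RUNX core lay in 5 of the 8 (Gzma, Gzmb, Prf1, Nkg7 and Ncr1), against 14% of 32536 promoter windows of the same length. The T-box core TCACAC lay in 4 of 8 (Gzmb, Gzmk, Nkg7 and Ncr1), against 12.1% of windows, and the ETS core CAGGAA in 3 of 8 (Prf1, Nkg7 and Fasl), against 25.6%. The AP-1 core TGANTCA lay in 1 of 8 (Gzmb), against 6.73%. These were all the motifs searched, both strands were read, and RUNX was picked for display after the counts were seen. The capitals in the runs overlap no other searched motif, and a match is a description of the letters only.

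The genes lie at separate places in the genome except Gzma and Gzmk, which are both on the minus strand of chromosome 13 (113093825 to 113100981 and 113171608 to 113225908). Gzmb spans chr14:56258838-56262260, Prf1 chr10:61297833-61304680, Ncr1 chr7:4337724-4345164, Nkg7 chr7:43437073-43438249, Klrd1 chr6:129591782-129598775, Ctsw chr19:5465043-5468507, Fasl chr1:161780689-161788495 and Ifng chr10:118441046-118445892. The Gzmk gene overlaps Esm1, on the opposite strand, over 8440 bases, and the Ctsw gene overlaps Fibp, also opposite, over 9 bases. Ifng shares 2722 bases and 15.8% of its transcript 31-mers with Gm49751 on the same strand, so its counts are uncertain to that extent.

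After filtering, 21537 cells were kept, 2549 to 4305 per library, with median depths of 6568 to 13620 UMIs (unique molecular identifiers, each standing for 1 captured transcript). The T-cell-like cluster, formed without using the 10 genes, held 468 cells (Prepuberty 9 and 96, DCIS 56 and 30, Tumor 175 and 102, replicate 1 first), and no cluster was NK-like by its markers. Its cells were shallow, with a median of 1867 UMIs. Populations were therefore set by transcripts that are not among the 10 genes. Cd3e-positive cells had at least 1 UMI of Cd3e, a chain of the T cell receptor complex, and numbered 8 and 57 in the Prepuberty libraries, 33 and 13 in DCIS, and 123 and 49 in Tumor. NK-marker cells lay in the T-cell-like cluster, lacked Cd3e and had a UMI of at least 1 of 8 NK genes (Klrb1c, Klre1, Klra4, Klra7, Klra8, Klra9, Klri2, Eomes). In the same order they numbered 1, 7, 5, 4, 19 and 41, and made up 40.2% of the T-cell-like cluster in Tumor 2 against 7.29% to 13.3% in the other 5 libraries. The remaining 169 cells of the cluster had neither mark, and 53.8% of them had a UMI of Cd3d.

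The gates were checked against further markers. Of 222 Cd3e-positive cells in the T-cell-like cluster, 82.4% had Cd3d, 84.2% Cd3g and 52.3% Trac, and none had Cd79a or Ms4a1. Of the 77 NK-marker cells, 18.2% had Cd3d, 22.1% Cd3g, 10.4% Trac and 24.7% Trdc, so the gate also held cells with T cell receptor transcripts. Klra4, a gate gene, had most of its Tumor 1 UMIs outside NK-marker cells, as given below, and no gate without it was tried. Another 61 Cd3e-positive cells lay in other clusters, 36 of them in Tumor 1 (29.3% of its Cd3e-positive cells), and there the summed CPM (UMI counts scaled to a common total) of 6 epithelial markers over Cd3e-positive cells was 1949 against 23.8 in Prepuberty 2. Within the T-cell-like cluster that sum was 195 and 19.99 CPM. Values for the T-cell-like cluster alone are therefore also given in the comparison with NK-marker cells, for shares and for the number of calls. Levels by state are over Cd3e-positive cells of all clusters. Summed over the 10 genes, these stood at 918 CPM in Prepuberty 2, 542 and 61.7 in DCIS, and 396 and 707 in Tumor. Within the T-cell-like cluster the sums were 1026, 700, 166, 1121 and 1046 CPM in the same order. Prepuberty 1 had 2 such cells and is left out.

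The transcripts of the 10 genes were found mostly in the T-cell-like cluster, and those of Ncr1, Gzma and Prf1 mostly in NK-marker cells. Of their 3013 UMIs, 81.8% lay in the T-cell-like cluster (Wilson 95% interval 80.4% to 83.2%, counting error only), which held 468 of 21537 cells. NK-marker cells, 77 in all, held 78.2% of the UMIs of Ncr1, 74.9% of Gzma and 67.0% of Prf1. They held less of Klrd1 (52.1%), Ifng (48.3%), Nkg7 (46.2%) and Fasl (39.4%). For Gzmb and Ctsw the NK-marker share was 24.4% and 24.2%. Cd3e-positive cells of the cluster held 44.4% of Gzmb, 29.9% of Nkg7 and 23.4% of Ctsw, but 3.30% of Gzma and 0.508% of Ncr1, which was 1 UMI.

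Single libraries set the order of these shares for some genes. Of the 162 Gzmb UMIs in Cd3e-positive cells of the cluster, 114 were from Prepuberty 2, and without that library their share was 21.1% and that of NK-marker cells 37.4%, so the order turned. Without Tumor 2, which held most NK-marker cells, the NK-marker share was 22.4% for Nkg7, 11.3% for Ctsw, 26.1% for Fasl, 7.14% for Gzmb and 34.1% for Klrd1, and that of Cd3e-positive cells of the cluster 44% for Nkg7, 27.7% for Ctsw, 41.3% for Fasl, 53.2% for Gzmb and 29.9% for Klrd1. Without Tumor 1, the 2 shares of Fasl were 61.1% and 13.9%. Ncr1, Gzma and Prf1 kept most of their UMIs in NK-marker cells without Tumor 2, at 69.4%, 59.6% and 66.7%, and Cd3e-positive cells of the cluster then held 0%, 8.65% and 20.8% of them. Leaving out libraries in this way was added after the data were seen.

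**Figure D1:**
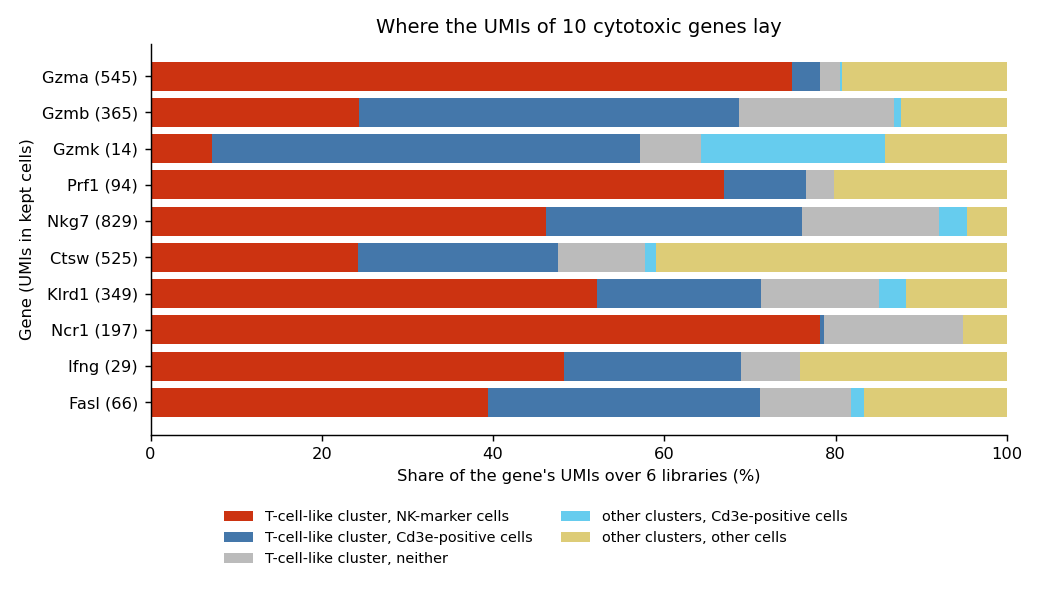
Share of each gene's UMIs (horizontal axis, %) in 5 sets of cells, pooled over 6 libraries, with the gene's UMI total in brackets. Ncr1, Gzma and Prf1 lie mostly in NK-marker cells (78.2%, 74.9% and 67.0%), 44.4% of Gzmb lies in Cd3e-positive cells of the T-cell-like cluster (21.1% without Prepuberty 2), and 42.3% of Ctsw lies outside that cluster.

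Ctsw was the gene with the most transcripts outside the T-cell-like cluster, 222 of 525 UMIs. Of these, 136 lay in 113 cells of unnamed clusters (1.97 CPM) and 51 in 42 epithelial-like cells (0.764 CPM), against 264 CPM in the T-cell-like cluster. The unnamed cells with Ctsw came mostly from Tumor 1 and Tumor 2, at 69 and 57 UMIs. In Klrd1, 19 UMIs lay in 10 of 123 dendritic-like cells (26.6 CPM) and 15 in 8 of 1204 macrophage-like cells. Nkg7 had 11 UMIs in 2 dendritic-like cells, 9 of them in a cell with 3 Cd3e UMIs.

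A few cells placed in other classes carried a cytotoxic set. In Tumor 2, 3 B-cell-like cells together held 42 UMIs of Gzma, 18 of Prf1, 15 of Nkg7 and 5 of Ncr1, and 0 of Cd79a, Ms4a1 and Cd3e. The B-cell-like class of that library was 4 cells. When the libraries were clustered without integration, the share of UMIs in the T-cell-like cluster was 98.9% for Prf1 and 88.3% for Gzma, in place of 79.8% and 80.6%. In Tumor 1, a macrophage-like cell of 1089 UMIs held 34 of Gzmb and 0 of the macrophage gene Lyz2.

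The genes were detected together more often in NK-marker cells than in the other cells of the cluster. At least 3 of the 10 were seen in 60 of 77 NK-marker cells (77.9%), in 33 of 222 Cd3e-positive cells of the T-cell-like cluster (14.9%) and in 22 of 169 cells with neither mark (13.0%). The median number per cell was 4, 1 and 0, at median depths of 2199, 2206.5 and 1507 UMIs. A granzyme or Prf1 was seen in 46 NK-marker cells and 41 Cd3e-positive cells of the cluster, and both a granzyme and Prf1 in 21 and 5. In the Tumor libraries alone, at least 3 genes were seen in 68.4% and 92.7% of NK-marker cells and in 19.5% and 20% of the Cd3e-positive cells of the cluster, and in 20.3% and 43.8% of the cells with neither mark (7 of 16 cells in Tumor 2). In the other 4 libraries the last share was 0% to 4%. NK-marker cells of the other libraries were too few for shares: at least 3 genes were seen in 1 of 1 in Prepuberty 1, 4 of 7 in Prepuberty 2, 2 of 5 in DCIS 1 and 2 of 4 in DCIS 2.

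**Figure D2:**
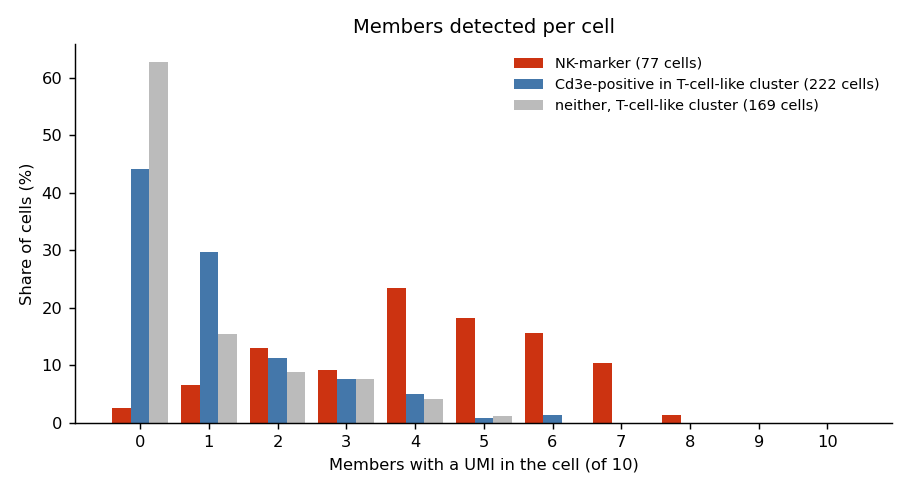
Share of cells (vertical axis, %) by the number of the 10 genes with at least 1 UMI (horizontal axis), for 3 populations pooled over 6 libraries. The median NK-marker cell had 4 genes, and 44.1% of the Cd3e-positive cells of the T-cell-like cluster had none.

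Within the T-cell-like cluster, Prf1 was nested in Nkg7: of 39 cells with Prf1, 36 had Nkg7 (92.3%), which was 20.1% of the 179 cells with Nkg7. The 2 main granzymes overlapped less, since 15 cells had both Gzma and Gzmb, 35.7% of the 42 with Gzma and 25% of the 60 with Gzmb. None of the 4 cells with Gzmk had Gzma, Gzmb, Prf1 or Ncr1, and each had Nkg7. These shares move with depth, and cells without a UMI may still express a gene.

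NK-marker cells were then compared with Cd3e-positive cells of all clusters within Tumor 1 and Tumor 2, the only libraries with at least 10 of each. All 8 cytotoxic genes that could be tested were higher in NK-marker cells at an adjusted p under 0.05 (edgeR quasi-likelihood test with the library as a block, Benjamini-Hochberg over 2662 genes), where 4.24% of genes were called higher and 6.69% lower (20.2% at an unadjusted p under 0.05). In all 8 both NK-marker sums stood above both Cd3e-positive sums, as in 17.3% of genes, whereas 23.7% stood below. The median log2 fold change of the 8 was 3.45, against -0.06 for all genes. Gzmk and Ifng were too low to test. Gzma, Prf1, Ncr1 and Fasl stood at 0 to 19.2 CPM in Cd3e-positive cells, so they may have passed the low-count filter through NK-marker cells only. For such genes a lower level in NK-marker cells could hardly have been tested. The count of 8, the median and the lack of overlap are therefore descriptions, partly set by the filter. Against Cd3e-positive cells of the T-cell-like cluster alone, 72 of 2001 genes were called higher and 72 lower. Fasl was then not called, and the differences given by gene below were smaller. The 4 sums left 1 residual degree of freedom, so the p-values rest on a spread shared across genes.

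**Figure D3:**
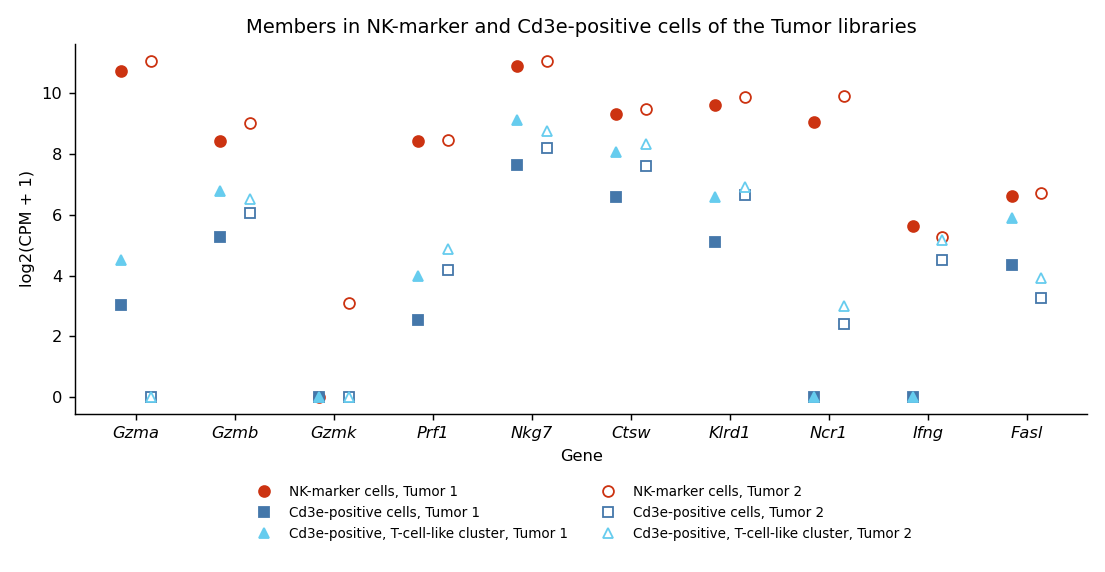
Level of each gene, log2(CPM + 1), in NK-marker cells, in Cd3e-positive cells, and in the Cd3e-positive cells of the T-cell-like cluster, for Tumor 1 (filled) and Tumor 2 (open). In the 8 tested genes the NK-marker points of both libraries stand above the Cd3e-positive points, from 8.80 log2 units for Ncr1 to 2.25 for Ctsw in the fit.

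Of the granule proteins, Gzma and Prf1 differed most. Gzma stood at 1687 and 2123 CPM in NK-marker cells of Tumor 1 and Tumor 2, and at 7.20 and 0 CPM in Cd3e-positive cells, so the groups were far apart in each library. Its log2 difference was 8.25 (SE 0.452, adjusted p = 1.29e-66), and 6.89 against Cd3e-positive cells of the T-cell-like cluster alone. Prf1 stood at 342 and 351 CPM against 4.80 and 17.3 CPM, a log2 difference of 5.22 (SE 0.551) or 3.98 against the narrower set. Gzmb, the granzyme that Cd3e-positive cells also carried, stood at 342 and 516 CPM against 37.2 and 65.0 CPM. Its log2 difference was 3.07 (SE 0.449), which fell to 2.02 against the narrower set.

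Nkg7 and Ctsw were abundant in both populations. Nkg7 stood at 1907 and 2153 CPM in NK-marker cells and at 198 and 295 CPM in Cd3e-positive cells, or 551 and 431 CPM within the T-cell-like cluster. The log2 difference was 3.05 (SE 0.281), or 2.00 within the cluster, about 3.46-fold in Tumor 1 and 4.99-fold in Tumor 2. Ctsw differed least, at 636 and 710 CPM against 96.0 and 195 CPM, with a log2 difference of 2.25 (SE 0.362), or 1.14 within the cluster. Without the library block, Ctsw no longer passed the threshold (edgeR adjusted p = 0.0743), whereas the other granule genes did.

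Among the receptors and effectors, Ncr1 was near absent from Cd3e-positive cells. It stood at 538 and 964 CPM in NK-marker cells and at 0 and 4.34 CPM (1 UMI) in Cd3e-positive cells, a ratio over both libraries of 920 with an exact 95% counting interval from 163. Klrd1 stood at 782 and 935 CPM against 33.6 and 99.7 CPM, a log2 difference of 3.83 (SE 0.387), or 2.93 within the cluster. Fasl stood at 97.8 and 105 CPM against 19.2 and 8.67 CPM, the last from 2 UMIs. Its log2 difference of 2.78 (SE 0.850, edgeR adjusted p = 0.0134) was 1.51 and not called within the cluster (adjusted p = 0.183), nor without the block, without a filter or without TMM scaling (adjusted p 0.0701 to 0.189), and DESeq2 gave it no adjusted p. Ifng had 2 and 5 UMIs in NK-marker cells and 0 and 5 in Cd3e-positive cells, too few to compare.

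Other genes of the program were read from lists chosen beside the 10 genes. Here and in the next paragraph they are from the fit against Cd3e-positive cells of all clusters. In it 4.24% of 2662 genes were called higher and 6.69% lower. Here too, genes near 0 in Cd3e-positive cells may have entered through NK-marker cells only. In Tumor 1, 6 fibroblast markers summed to 7011 CPM in that set and to 18.4 CPM within the T-cell-like cluster. List values against the cluster alone are not given. Of 7 tested granule and release genes, 5 were higher in NK-marker cells (Gzmc, Serpinb6b, Serpinb9, Cst7, Srgn) and Lamp1, a lysosomal membrane protein, was lower (log2 -1.94). Serpinb9, which inhibits granzyme B and is held to protect the killer itself, had a log2 difference of 2.85 (SE 0.469). Gzmc, a further granzyme whose near copies can share reads, had one of 4.22 (SE 0.365). Cst7 (cystatin F), an inhibitor of granule cathepsins, had one of 2.58 (SE 0.470).

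Of 8 tested NK receptors and adaptors that were not used in the gate, 7 were higher (median of the 8, 3.10), led by Klrk1 (NKG2D, log2 4.08), Tyrobp (DAP12, an adaptor, 4.04) and then Klrc1 (NKG2A), the partner of Klrd1. All 4 tested cytokine genes were higher, as were 4.24% of all genes, from Ccl5 (3.78) and Xcl1 (3.18) to Ccl4 (1.92) and Ltb (0.94). Of 4 tested transcription factors outside the gate, Stat4 (2.43) and Id2 (1.28) were higher. Among genes of naive and recirculating T cells, the interleukin 7 receptor Il7r was lower (-2.76), and of 5 checkpoint and activation genes Tnfrsf9 (4-1BB) was higher (2.74) and the T cell costimulator Icos lower (-4.58).

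NK-marker cells outside the Tumor libraries were few, and the 1 cell of Prepuberty 1 had no UMI of a granzyme or Prf1. Gzma stood at 1784 CPM in Prepuberty 2 (26 UMIs in 3 of 7 cells), 1785 CPM in DCIS 1 (13 UMIs in 2 of 5 cells) and 2084 CPM in DCIS 2 (16 UMIs in 3 of 4 cells). These levels lay in the range of the 2 Tumor libraries but rest on 2 or 3 cells in each library. Ncr1 had 2, 1 and 0 UMIs there and Prf1 2, 0 and 0. Nkg7 was at 274, 961 and 130 CPM, below both Tumor libraries. With so few cells no test across states was made.

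In Cd3e-positive cells the question was whether the T cell effector genes differed between Prepuberty, DCIS and Tumor. None of the 10 genes passed the threshold in any of the 3 comparisons, in which 5 libraries could enter (Prepuberty 1 had 8 cells, so Prepuberty stood on Prepuberty 2 alone and was assumed to vary like the other states). Klrd1, Nkg7, Gzmb and Ctsw could be tested, among 4005 genes. Over all genes, edgeR called 0% for DCIS against Prepuberty, 0.0499% for Tumor against DCIS (0.025% higher and 0.025% lower, namely Spp1, named after its value was seen, and Tnfrsf9) and 0% for Tumor against Prepuberty. At an unadjusted p under 0.05 it counted 226, 306 and 343 genes (5.64%, 7.64% and 8.56%), and DESeq2 called 7, 28 and 25. Groups that did not overlap were common, so they are read against their background. For DCIS against Prepuberty, Gzmb and Ctsw were lower without overlap, as were 41% of genes (27.2% were higher). For Tumor against DCIS, Gzmb and Ctsw were higher, as were 28.9% of genes (14.4% were lower). For Tumor against Prepuberty, Nkg7 and Ctsw were higher, as were 37% of genes, and Gzmb was lower, as were 35.4%.

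Gzmb was the granzyme with the most transcripts in Cd3e-positive cells and had its highest level in a prepubertal gland. It stood at 0 CPM in Prepuberty 1, 679 in Prepuberty 2, 28.0 in DCIS 1, 30.8 in DCIS 2, 37.2 in Tumor 1 and 65.0 in Tumor 2. These levels, and the log2 differences below, are over cells of all clusters. Within the T-cell-like cluster Gzmb stood at 110 CPM in Tumor 1 and 91.9 CPM in Tumor 2. The Prepuberty 2 level came from 114 UMIs in 10 of 57 cells, and 56 of them were in a single cell. The log2 difference from Prepuberty was -4.36 for DCIS (SE 0.669, edgeR adjusted p = 0.305) and -3.76 for Tumor (SE 0.572, adjusted p = 0.0937). It was called in 6 and 5 of 18 alternatives, among them DESeq2 (adjusted p = 0.0153 and 0.0107), and the range over alternatives was 2.53e-06 to 0.964 and 7.47e-06 to 0.740. Prepuberty 2 alone decided this difference, since it was the only library of its state.

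Gzma was rare among Cd3e-positive cells in each state. It had 4, 7, 2, 0, 6 and 0 UMIs in the 6 libraries, and 0 UMIs in 49 cells of Tumor 2, where NK-marker cells held 284. Gzmk was found in Cd3e-positive cells of DCIS 1 only, with 10 UMIs in 3 of 33 cells (93.4 CPM). The whole series held 14 Gzmk UMIs in 7 cells, 85.7% of them in DCIS 1. Prf1 had 1 UMI in Prepuberty 2, 4 in Tumor 1 and 4 in Tumor 2, each in a different cell, and 0 in the other 3 libraries.

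Nkg7 was the most frequent of the 10 genes in Cd3e-positive cells, and Ctsw had its highest levels in Tumor. Nkg7 stood at 19.9 CPM in Prepuberty 1, 83.4 in Prepuberty 2, 234 in DCIS 1, 30.8 in DCIS 2, 198 in Tumor 1 and 295 in Tumor 2. Over cells of all clusters DCIS thus overlapped both other states. Within the T-cell-like cluster Nkg7 stood higher in Tumor, at 551 and 431 CPM, and the overlap was not read there. The log2 difference of Tumor from Prepuberty was 1.56 (SE 0.939, edgeR adjusted p = 0.708). Ctsw had 0, 5, 0, 0, 80 and 45 UMIs in the same order, 96.0 and 195 CPM in Tumor 1 and 2 and 29.8 CPM in Prepuberty 2. Against DCIS, with 0 UMIs in 33 and 13 cells and a floor of 3 UMIs over the state, Tumor was at least 6.73-fold higher, and edgeR gave an adjusted p of 0.216. Against Prepuberty the log2 difference was 2.25 (SE 0.881, adjusted p = 0.548).

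A set added after the data were seen held the Cd3e-positive cells of the T-cell-like cluster without any NK-marker UMI. It is named T-like cells with no NK-marker UMI below. Only Prepuberty 2, DCIS 1, Tumor 1 and Tumor 2 could enter. The log2 differences of Tumor from Prepuberty were 4.39 for Ctsw, 2.67 for Nkg7 and -2.56 for Gzmb. Of these 3 genes, Ctsw and Nkg7 were higher in Tumor and Gzmb was lower. With 1 library each in Prepuberty and DCIS, the spread was taken from the 2 Tumor libraries, so only the size of the differences is given.

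Klrd1 stood at 19.9, 71.5, 131, 0, 33.6 and 99.7 CPM in Cd3e-positive cells, with the states overlapping, and its log2 differences lay between -0.35 and 0.18. Fasl had 0, 1, 3, 0, 16 and 2 UMIs, the 16 in 12 of 123 cells of Tumor 1. Ifng had 1 UMI in DCIS 1 and 5 in Tumor 2, and Ncr1 had 1 UMI, in Tumor 2. None of these 3 could be tested.

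Shares of Cd3e-positive cells were compared after thinning each cell to 1500 UMIs, which left out 3, 16, 8, 4, 18 and 1 shallower cells in library order. At least 1 of the 10 genes was seen in 0 of 5 cells of Prepuberty 1, 34.1% of 41 in Prepuberty 2 (Wilson 95% interval 21.6% to 49.5%), 40% of 25 in DCIS 1 (23.4% to 59.3%), 11.1% of 9 in DCIS 2 (1.99% to 43.5%), 38.1% of 105 in Tumor 1 (29.4% to 47.6%) and 39.6% of 48 in Tumor 2 (27.02% to 53.7%). The intervals of all 6 libraries overlap, and so they do when cells are thinned to 1000 UMIs. In the T-cell-like cluster alone they overlap at 1500 UMIs, but at 1000 UMIs the share was 57.8% in Tumor 1 (47.1% to 67.9%), above 26% in Prepuberty 2 (15.9% to 39.6%) and 26.9% in DCIS 1 (13.7% to 46.1%) without overlap, and 40% in Tumor 2 (27.02% to 54.5%). Without thinning the shares were 25%, 40.4%, 39.4%, 23.1%, 52.0% and 57.1%. In the T-cell-like cluster alone the thinned share of Tumor 1 was 53.6%.

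**Figure D4:**
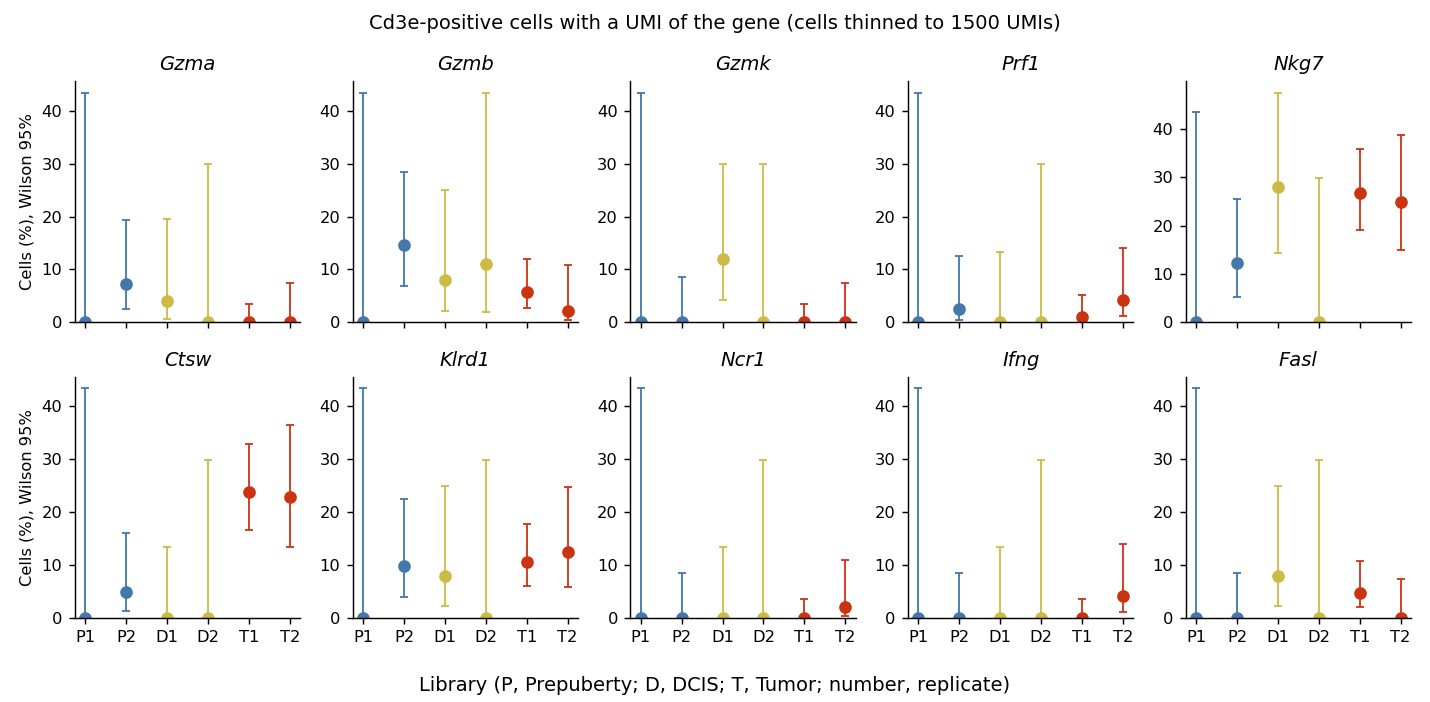
Share of Cd3e-positive cells with a UMI of each gene (vertical axis, %) after thinning to 1500 UMIs per cell, by library, with Wilson 95% intervals for counting error. Ctsw is seen in 23.8% and 22.9% of cells in the Tumor libraries and in 0% to 4.88% in the others. Gzmk in DCIS 1 (12%, 4.17% to 30.0%, from 3 cells) lies above Tumor 1 (0%, upper limit 3.53%). Intervals of the remaining genes overlap.

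By gene, Nkg7 was seen in 12.2% of thinned cells in Prepuberty 2, 28% in DCIS 1, 26.7% in Tumor 1 and 25% in Tumor 2. Ctsw was seen in 4.88% (1.35% to 16.1%), 0%, 23.8% (16.7% to 32.8%) and 22.9% (13.3% to 36.5%) of cells in the same libraries. With 0 of 25 cells in DCIS 1, a Ctsw share up to 12% is allowed. Gzmb was seen in 14.6% of cells in Prepuberty 2 (6.88% to 28.4%), 5.71% in Tumor 1 and 2.08% in Tumor 2 (0.369% to 10.9%), with overlapping intervals. Klrd1 was seen in 8% to 12.5% of cells in these 4 libraries. In epithelial-like and fibroblast-like cells thinned to the same depth (median depths 10613 and 9297.5 UMIs before thinning), the highest share of any gene was 0.161% over all libraries and 0.64% in a single library (Ctsw in 4 of 625 epithelial-like cells of Tumor 2). Cells of unnamed clusters were not thinned, and 2.44% of them had Ctsw at full depth, 4.06% in Tumor 2.

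Among Cd3e-positive cells, 61 had Cd8a or Cd8b1 without Cd4 and 34 had Cd4 without either, and no library held 10 of both, so only values are given. Of the pooled Cd8-positive cells, 37 of which were from Tumor 1, 73.8% had Nkg7 (916 CPM), 50.8% Ctsw (335 CPM), 39.3% Klrd1 (194 CPM), 18.0% Gzmb and 13.1% Gzma. Of the Cd4-positive cells 14.7% had Nkg7 (94.1 CPM), 8.82% Ctsw and 2.94% Klrd1. Gzmb was seen in 14.7% of Cd4-positive cells, and its level was 124 CPM there and 99.1 CPM in Cd8-positive cells. Its 21 UMIs in Cd4-positive cells came from 5 cells, 12 of them in Prepuberty 2. Ctsw stood at 29.7 CPM in the 15 Cd8-positive cells of Prepuberty 2, and at 400 and 404 CPM in the 37 and 7 of Tumor 1 and Tumor 2.

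In whole suspensions, where a lower number of cells and less RNA per cell cannot be told apart, most of the 10 genes had their highest levels in Tumor. Ctsw was the only one to pass the threshold, higher in Tumor than in Prepuberty (edgeR over all 6 libraries and 15608 genes), where 4.88% of genes were called higher and 7.6% lower. For Tumor against DCIS none of the 8 tested genes was called (4.53% of genes called, 0.923% higher and 3.61% lower), nor for DCIS against Prepuberty (0% called), where 2079 genes (13.3%) had an unadjusted p under 0.05 and DESeq2 called 585. The median log2 fold change of the 8 was 2.53 for Tumor against DCIS and 3.01 for Tumor against Prepuberty, against 0.05 and 0.03 for all genes. Both Tumor libraries stood above both DCIS libraries in 7 of 8 genes and above both Prepuberty libraries in 7 of 8, where 44.9% and 37.6% of all genes did. Over the same libraries the T-cell-like cluster was 0.213% and 2.74% of Prepuberty cells, 1.82% and 0.775% of DCIS cells, and 4.07% and 4.002% in Tumor, and its part in these differences was not tested.

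**Figure D5:**
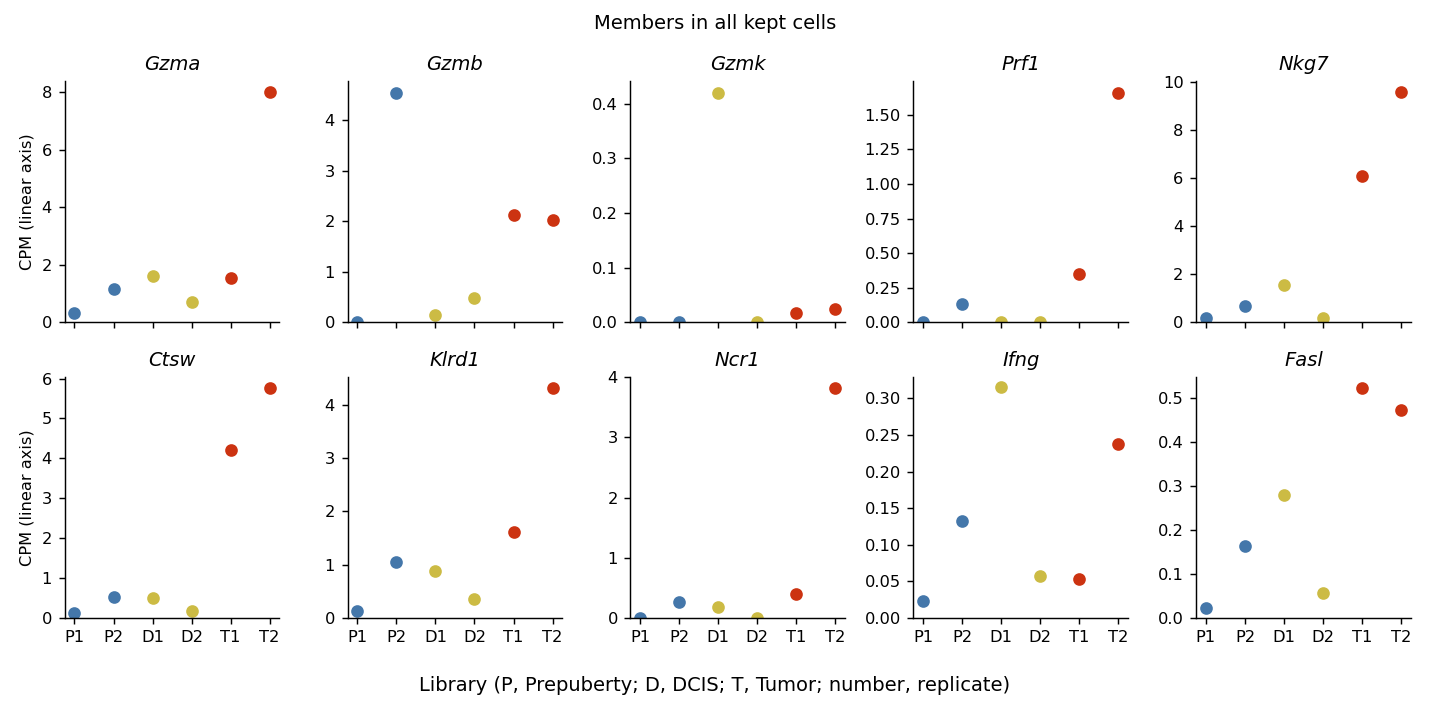
Level of each gene over all kept cells of a library (CPM, linear axis with its own range per gene), for the 2 libraries of each state. Nkg7, Ctsw and Klrd1 are highest in the 2 Tumor libraries, Gzma, Prf1 and Ncr1 in Tumor 2, Gzmb in Prepuberty 2 and Gzmk in DCIS 1.

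Ctsw stood at 0.113 and 0.527 CPM in Prepuberty 1 and 2, 0.490 and 0.173 CPM in DCIS, and 4.21 and 5.77 CPM in Tumor, so Tumor did not overlap either state. Its log2 difference of Tumor from Prepuberty was 3.73 (SE 0.865, edgeR adjusted p = 0.0381). The call was lost in 9 of 15 alternatives, among them each fit that left out 1 of the 6 libraries (adjusted p 0.0623 to 0.111) and the replicate block (adjusted p = 0.0563), and the log2 difference stayed between 3.03 and 5.03. Tumor against DCIS gave 3.49 (SE 0.859, adjusted p = 0.0644). Nkg7 too was highest in both Tumor libraries, at 0.159 and 0.659 CPM in Prepuberty, 1.54 and 0.173 in DCIS, and 6.08 and 9.59 in Tumor. Its log2 difference of Tumor from Prepuberty was 4.01 (SE 1.09, edgeR adjusted p = 0.0574), called in 7 of 15 alternatives.

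Of the granzymes, Gzma stood at 0.318 and 1.15 CPM in Prepuberty, 1.61 and 0.719 in DCIS, and 1.54 and 7.998 in Tumor, where Tumor 2 held 61.8% of its UMIs and Tumor 1 lay within the range of DCIS. Gzmb stood at 0 and 4.54, 0.140 and 0.489, then 2.12 and 2.02 CPM, with Prepuberty 2 above both Tumor libraries. Gzmk was at or under 0.0237 CPM except in DCIS 1 (0.420 CPM). For Prf1 the UMIs were 0 and 4, 0 and 0, then 20 and 70, and the pooled Tumor level was at least 19.1-fold that of DCIS, set at 3 UMIs over the state (edgeR adjusted p = 0.0950). The perforin level thus rested on Tumor 2, with 74.5% of its UMIs.

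Ncr1 followed the NK-marker cells. It stood at 0 and 0.263 CPM in Prepuberty, 0.175 and 0 in DCIS, 0.402 in Tumor 1 and 3.82 in Tumor 2, which held 81.7% of its UMIs and 41 of the 77 NK-marker cells. Klrd1 stood at 0.136 and 1.05, 0.875 and 0.345, then 1.61 and 4.32 CPM, a log2 difference of Tumor from Prepuberty of 2.04 (SE 0.992, edgeR adjusted p = 0.212). Fasl stood at 0.0227 and 0.165, 0.280 and 0.0575, then 0.525 and 0.475 CPM, with a log2 difference of 2.24 (SE 1.09, adjusted p = 0.211). Ifng had 1 and 4, 9 and 2, then 3 and 10 UMIs, with no order by state.

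The lists around the 10 genes moved in both directions between Tumor and Prepuberty. Over all genes, 4.88% were called higher and 7.6% lower in this comparison. In lists this small, 1 or 2 calls are therefore not read as a result about the list, here and in the next paragraph. Of 15 tested granule and release genes, Gzmc, Gzmd and Ctsc (the protease that activates granzymes, log2 2.21) were called higher and Serpinb9 (-3.20), Serpinb6b (-2.90) and Stx11 (-1.51), a fusion protein of granule release, lower. Gzmc had 1 and 0 UMIs in Prepuberty and 237 and 395 in Tumor, and Gzmd had 0 in the 4 gland libraries and 675 and 63 in Tumor. Of the 675 Gzmd UMIs of Tumor 1, 19 lay in Cd3e-positive cells and 0 in NK-marker cells. Of 13 NK receptors and adaptors, Klra4, Klrc2 and Tyrobp (2.36) were higher, and of the 360 Klra4 UMIs of Tumor 1, 12 lay in NK-marker cells.

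Of 8 transcription factors, Runx3 was higher (4.57, SE 1.08) and Zeb2 lower (-1.90). Most Runx3 UMIs of Tumor 2 lay outside Cd3e-positive and NK-marker cells, as given at the end. All values of this paragraph are of whole suspensions and not of lymphocytes. Of 10 cytokine and death ligand genes, Xcl1 was higher (5.96) and Csf2 lower (-6.02). Of 7 genes of naive and recirculating T cells, Tcf7 was higher (2.60) and S1pr1 lower (-2.87), and of 9 checkpoint genes Havcr2 (TIM-3) was higher (3.24). For Tumor against DCIS, Serpinb6b (-3.72), Serpinb9 (-3.07), Stx11 (-2.01), Zeb2 (-1.50), Slamf7 (-3.82) and S1pr1 (-2.08) were lower and Klra4 (4.49) higher. Of all genes, 3.61% were called lower and 0.923% higher there.

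Of 11 tested receptors and target genes of the effectors, 3 were called lower in Tumor than in DCIS and 6 lower than in Prepuberty, where 3.61% and 7.6% of all genes were. All 11 had a negative log2 difference against DCIS and against Prepuberty, with medians of -1.35 and -1.83. Fas, the receptor of Fasl, stood at 25.7 and 65.5 CPM in Prepuberty, 40.3 and 32.2 in DCIS, and 4.83 and 11.3 in Tumor, with log2 differences of -2.81 (SE 0.503, edgeR adjusted p = 0.0199) from Prepuberty and -2.64 from DCIS. Cd274 (PD-L1), induced by interferon gamma, differed by -3.06 and -4.25, and the chemokine Cxcl10 by -3.20 from Prepuberty. Ifngr1, a chain of the interferon gamma receptor, differed by -1.36 (adjusted p = 0.0493) from Prepuberty, and Gbp2 by -1.83.

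By class, Fas was at 44.9 CPM in fibroblast-like, 53.5 in myoepithelial-like, 36.7 in endothelial-like, 62.0 in pericyte- or smooth-muscle-like and 63.0 in dendritic-like cells, and at 11.9 in epithelial-like cells. In Prepuberty, DCIS and Tumor, epithelial-like cells had 6.77 and 39.2, 28.3 and 24.2, then 2.67 and 4.38 CPM. Macrophage-like cells had 70.1 and 78.2, 36.3 and 32.9, then 16.3 and 11.7 CPM. Endothelial-like cells had 26.3 and 50.1, 42.6 and 29.6, then 5.28 and 14.8 CPM. Fibroblast-like cells overlapped, with 33.0 and 76.5, 56.2 and 26.9, then 13.8 and 35.2 CPM. These Fas values were not tested. Ifngr1 was highest in the T-cell-like cluster, at 730 CPM, against 54.1 in epithelial-like cells. Its order by state differed between classes, as values with no test. In the T-cell-like cluster Ifngr1 stood at 1273 and 1277 CPM in Prepuberty, 1017 and 724 in DCIS and 544 and 464 in Tumor, whereas in macrophage-like cells it stood at 6.57 and 54.9, 55.1 and 47.6, and 136 and 172 CPM. The mix of these classes differed between states, and its part in the differences of whole suspensions was not tested.

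Scaling mattered for these whole-suspension comparisons. Without TMM scaling, the median of all genes moved from 0.03 to 0.32 for Tumor against Prepuberty and from 0.05 to 0.47 for Tumor against DCIS, and the calls from 762 higher and 1186 lower to 1251 and 938, and from 144 and 563 to 476 and 441. The log2 difference of Ctsw from Prepuberty was then 3.99 (edgeR adjusted p = 0.0304) and that of Nkg7 4.29 (adjusted p = 0.0432).

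Across 56 sums of a cell class in a library, each gene was compared with 15627 others by the correlation of log2(CPM + 1), as a description, since sums of a library share its depth and cells. The most similar genes were Tcrg-C4 (r = 0.973), Cd96 and Zap70 for Gzma, and Cxcr3 (0.943), Sla2 and Txk for Gzmb. Nkg7 was most like Cd7 (0.966), Cd247 and Trbc1, and Klrd1 like Cd8a (0.924), Klre1 and Cd7. Ncr1 was most like Xcl1 (0.939), Lax1 and Zap70. Fasl was most like Cxcr3 (0.982), Sla2 and Cd247, and Ctsw like Txk (0.869), Cd7 and Cd247. For Prf1 they were Il17a (0.919), Dapl1 and Tcrg-C1, for Ifng Trat1 (0.876), Klrc2 and Calca, and for Gzmk A930016O22Rik (0.815), 6430550D23Rik and Gm38405, where 14 UMIs give little to compare.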

How the data were processed

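The values the authors deposited are raw counts of UMIs in each cell, made with Cell Ranger 3.0.2 per the file headers. The submitters' notes also name the build mm10, which is not tied to these libraries. Cells with at least 200 genes and a mitochondrial share under 10% were kept. Doublets were removed by Scrublet score (scanpy 1.11.5) at 0.8% per 1000 cells, because its own threshold marked only 64 of 23835 barcodes. The gene minimum took out 546 barcodes, the mitochondrial limit 1045 and the doublet step 707. Pairs of libraries shared 7 to 32 kept barcodes. Libraries were integrated and clustered with Seurat 5.3.0 (2000 variable genes, 20 dimensions, resolution 0.8) after taking out the 10 genes. A cluster was named "X-like" when at least 3 markers of a type were seen in 25% of its cells at 2 times the other cells, and stayed unnamed otherwise, or where leading genes or depth went against the name. These rebuilt names may differ from the authors' annotation.

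UMIs were summed per library and population with at least 10 cells and tested with edgeR 4.0.16 (TMM, quasi-likelihood F test, two-sided, Benjamini-Hochberg over all genes passing edgeR's filter on low counts, threshold 0.05). Fold changes are log2. DESeq2 1.42.0 was an alternative, with other filters, scalings, gates and left-out libraries. Cells were thinned to 1500 UMIs for shares, or 1000 as an alternative. With 2 libraries against 2, an exact permutation test cannot go below p = 0.333, so shares were given with Wilson 95% intervals, which cover counting error only. A fold against a group at 0 is a bound set at 3 counts over the group. The scripts were tested on simulated counts. Named from each list were the called genes, at most 5 per direction by size. A result for a gene of the naive and recirculating T cell list is not reported here. The 10 genes, the lists and the gates were chosen with earlier results of these data known. Promoters are from RefSeq (GRCm38.p6), and gene positions are of GRCm38.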

Additional observations from a re-analysis of the deposited data

How the results depend on the processing

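In Cd3e-positive cells the counts were 0, 2 and 0 for DCIS against Prepuberty, Tumor against DCIS and Tumor against Prepuberty. They became 7, 28 and 25 with DESeq2, 45, 108 and 136 with no filter on low counts, 14, 46 and 41 in T-like cells with no NK-marker UMI (chosen after seeing the data), and 2, 23 and 16 with a replicate block. The first count was also 12 when only the 2 states entered, and 1 with a Cd3d, Cd3e or Cd3g UMI or with at least 2 Cd3e UMIs. The second was 0 in the T-cell-like cluster only, with DESeq2 size factors, with a Cd3d, Cd3e or Cd3g UMI, without TMM, at a mitochondrial share under 5% or when only the 2 states entered, 1 with at least 2 Cd3e UMIs, 4 when sums were thinned, and 5 over all cells of the cluster. The third was 3 over all cells of the cluster or with a Cd3d, Cd3e or Cd3g UMI, and 5 with doublets kept. Leaving out 1 library gave 0 to 91, 0 to 145 and 0 to 210 calls. The highest came without Tumor 1 (91, 145 and 109) or without Tumor 2 (88, 135 and 210), when 1 Tumor library was left and the lone library was assumed to vary like the others. The cause was not tested.

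In all kept cells the counts were 0, 707 and 1948. They were 585, 2868 and 3700 with DESeq2, 194, 1771 and 2933 with no filter, and 448 and 1150 for the last 2 when only the 2 states entered. Without 1 library they were 40 to 1102 for Tumor against DCIS and 518 to 1794 for Tumor against Prepuberty. In the Tumor libraries NK-marker against Cd3e-positive cells gave 291 calls, 144 against the T-cell-like cluster only, 85 with DESeq2, 174 without TMM and 31 without the library block. Leaving out a Tumor library there leaves a value with no test, given above per library. Cd8-positive against Cd4-positive cells could not be fitted under any setting.

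No called value of the 10 genes changed sign. Among uncalled log2 differences in Cd3e-positive cells, Klrd1 changed sign for Tumor against Prepuberty (0.61 in the T-cell-like cluster only, 0.12 in T-like cells with no NK-marker UMI, 1.39 over all cells of the cluster, 0.43 with a Cd3d, Cd3e or Cd3g UMI, 0.304 with at least 2 Cd3e UMIs, -0.998 to 0.384 without 1 library, the highest without Tumor 1). Klrd1 also changed for Tumor against DCIS (1.17 over all cells of the cluster, 0.0413 with a Cd3d, Cd3e or Cd3g UMI, -1.19 to 7.31 without 1 library, 7.31 without DCIS 1 and 0.161 without Tumor 1) and for DCIS against Prepuberty (-7.48 to 1.02, the lowest without DCIS 1). Gzmb changed for Tumor against DCIS with a Cd3d, Cd3e or Cd3g UMI (-0.888). Without 1 library, Nkg7 ran from -1.25 (without DCIS 1) to 1.63 for DCIS against Prepuberty and from -0.0628 (without DCIS 2) to 2.81 for Tumor against DCIS. In all kept cells, DCIS against Prepuberty ran from -1.01 to 2.43 for Nkg7, -0.653 to 1.54 for Ctsw, -0.58 to 2.17 for Klrd1 and -0.421 to 2.77 for Fasl, negative without DCIS 1 in all 4 and without Prepuberty 1 in Ctsw (-0.468) and Klrd1 (-0.58), and from -3.78 to 6.95 for Gzmb and -5.45 to 5.04 for Ncr1, highest without Prepuberty 2. Ncr1 was also 0.666 without DCIS 2 and 0.56 with the replicate block. For Tumor against Prepuberty, Gzmb ran from -1.32 to 9.23, the highest without Prepuberty 2, and was 1.29 with the replicate block. Values from 5.04 up and from -5.45 down set a group at 0 UMIs against another, so they depend on the prior count and are no measure of size.

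The numbers did not pair the libraries (same-numbered libraries correlated at -0.09 to 0.16 in their deviations, over 2 numbers). With the replicate block the counts in all kept cells were 1, 495 and 1698, and Ctsw lost its call. The share of Cd3e-positive cells with any of the 10 genes moved to 52.0% in Tumor 1 and 57.1% in Tumor 2 without thinning, and to 53.6% in Tumor 1 within the T-cell-like cluster. Clustering without integration put 85.1% of the UMIs of the 10 genes in the T-cell-like cluster in place of 81.8%, with 88.3% of Gzma, 98.9% of Prf1, 94.2% of Nkg7 and 97.5% of Ncr1. Depth limits the rarest genes, Gzmk and Ifng, with 14 and 29 UMIs in all.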

Other observations

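Genes of the cytotoxic lists were also read outside Cd3e-positive and NK-marker cells. Ccl5, a chemokine of activated T and NK cells, had 42042 UMIs in DCIS 1 and 33743 in DCIS 2, of which 571 and 80 lay in Cd3e-positive cells. It stood at 435 and 404 CPM in Prepuberty 1 and 2, 1472 and 971 CPM in DCIS 1 and 2, and 221 and 27.7 CPM in Tumor 1 and 2 over all kept cells. Tnfrsf9 had 2571 UMIs in Tumor 2, of which 12 lay in Cd3e-positive and 37 in NK-marker cells. Runx3 had 2240 UMIs in Tumor 2, of which 26 and 46 lay in these cells, and 345 in Tumor 1. Which cells held the rest was not examined here.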
